A study of Mus musculus with 14 samples.

Results

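The mouse embryonic stem cell library (mESC) was set against the library of 3T3, a mouse fibroblast line that the protocol writes as NIH3T3, for the positions of poly(A) sites, for how many tags each site carried, and for which of neighbouring sites was used. Same-strand intervals of the 2 site lists that overlapped or touched were merged, which gave 77696 sites, 62153 from the mESC list and 69893 from the 3T3 list before merging, against 159969 when all 14 libraries of the series were merged. The method, 3P-seq, captures and sequences the stretch of RNA just before the poly(A) tail, so that tags pile up at the positions of cleavage. Libraries were made from 75 µg of RNA. The labels give total RNA and the genetic background 129S5/SvEvBrd for all 14, 3T3 included, and give no genotype for either cell library. Whether that background holds for the 3T3 line was not checked. The other 12 libraries came from kidney, lung, liver, heart, muscle and white adipose tissue, each with 1 miR-22 knockout and 1 wild-type library, and serve here only as a scale. There was 1 library per group, without biological replicates per the series' design text, so no difference below has a replicate check and no test was possible.

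Most mammalian messenger RNAs end where a protein complex recognises a signal in the nascent transcript, cuts downstream of it and adds a poly(A) tail. Many genes hold several such sites in a row, and the choice between a proximal and a distal one sets the length of the 3′ untranslated region, where microRNAs and RNA-binding proteins attach. Proliferating cells and early embryonic cells are known for frequent use of proximal sites, whereas many differentiated tissues favour distal ones. A tag number at a site therefore mixes how abundant a transcript is with how often that site is chosen, and the distal share of a pair (the distal site's tags as a percent of the tags of both) separates the choice when the pair belongs to 1 gene.

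There were 3672600 tags in mESC and 4236185 in 3T3. Levels are given as TPM, here tags per 1000000 tags of the library. Mitochondrial sites took 2.43% of mESC tags and 7.34% of 3T3 tags, against 3.52% to 31.3% in the tissues. The most abundant sites that together held 50% of a library's tags numbered 427 in mESC and 255 in 3T3. Sites are named by chromosome and by start and end in mm9, counted from 1, and not by gene, because no annotation of that build was used here. For the same reason the cell labels could not be checked against marker genes. Intervals cover counting error only, as does the floor of 3 counts, which stood for 0.817 TPM in mESC and 0.708 in 3T3; the labels describe no molecular identifiers, so several tags may be copies of 1 molecule.

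Fewer than 50% of the merged sites had tags in both the stem cell and the fibroblast library, but those sites held most of the tags of each. Of the 77696 sites, 34634 had tags in both, 18752 in mESC only and 24310 in 3T3 only. The mESC-only sites held 4.50% of the mESC tags, and the 3T3-only sites 1.41% of the 3T3 tags. A single tag was all that 8596 of the mESC-only and 12440 of the 3T3-only sites had. At 20 TPM or more there were 224 mESC-only sites and 23 3T3-only sites, so abundant sites without a tag in the other library lay mostly on the mESC side. In bulk RNA, fewer cells with a transcript and less of it per cell cannot be told apart.

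Abundance was compared at the 6124 sites with 20 TPM or more in the higher library, which carried 92.3% of mESC tags and 92.7% of 3T3 tags. A site was counted as apart at a difference of 4-fold or more, with tag numbers under 3 set to 3. By that measure 1552 sites (25.3%) were higher in mESC, 1101 (18%) were higher in 3T3, and 2653 in all (43.3%) were apart. Only 1827 sites, 29.8%, lay within 2-fold. The median log2 difference was 0.30, with quartiles of -1.41 and 2.03. Differences of 16-fold or more were found at 635 sites higher in mESC and 311 higher in 3T3, and of 100-fold or more at 134 higher in mESC and 36 higher in 3T3. Sites higher in mESC had a median of 67.8 TPM there and held 30.2% of the mESC tags; those higher in 3T3 had a median of 61.1 TPM there and held 30.3% of the 3T3 tags.

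The balance of directions depended on the scaling, while the share of sites apart stayed at 43.0% to 43.3%. Sites higher in mESC made up 58.5% of those apart by total tags, 58.3% with TMM factors from edgeR over all sites and 56.4% by nuclear tags, which shifted every log2 difference by -0.01 and -0.07. DESeq2 gave both libraries a size factor of 1, so that its values are unscaled tags, and the share was 51.3% with a shift of -0.21. Over only the sites at 20 TPM or more, a choice made after seeing the data, it was 50.7% with TMM factors (shift -0.22) and 51.8% with DESeq2 factors (shift -0.19). Relative to these shifts the directions given for single sites below hold unless stated otherwise.

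**Figure D1:**
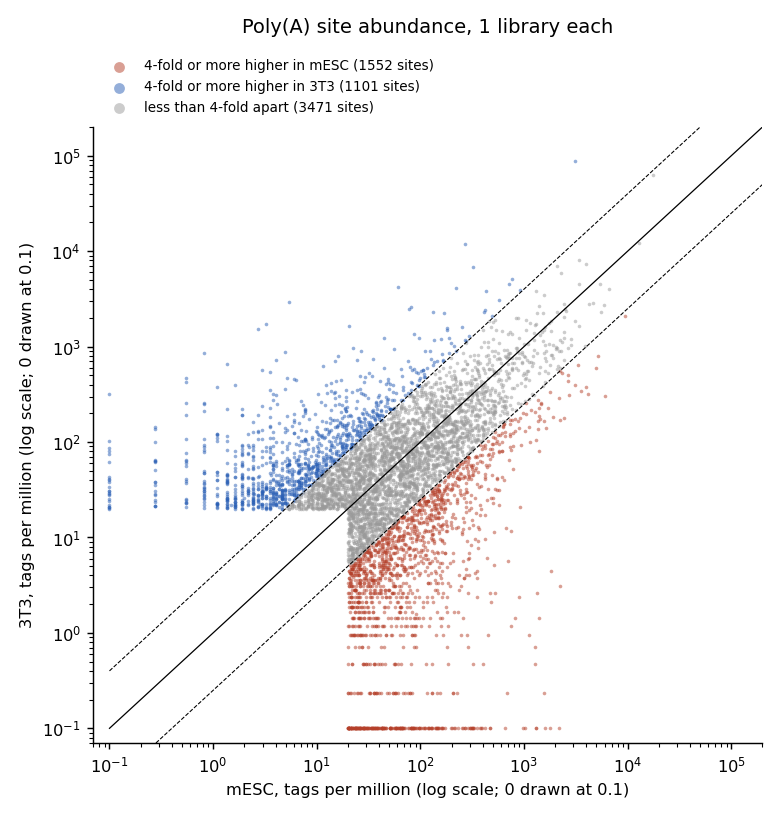
Abundance of the 6124 sites with 20 TPM or more in the higher library, mESC on the horizontal and 3T3 on the vertical log axis, with sites at 0 drawn at 0.1; the solid line marks equality and the dashed lines a 4-fold difference. The row of red points along the bottom, sites with no 3T3 tag, is denser than the blue column at the left, sites with no mESC tag, matching the counts of 224 and 23.

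The 12 largest ratios toward mESC, among nuclear sites with 50 TPM or more in the higher library, lay on 7 chromosomes and between 973 and 2195 TPM in mESC, with at most 6 tags in 3T3. The first was a plus-strand site on chromosome 3 at 34551352 to 34551379, with 8061 tags in mESC, or 2195 TPM, and 0 in 3T3. With the 0 set to 3 its ratio was 3099, and the counting interval began at 2520. Among the 12 tissue libraries 3 had any tag there, and the highest, wild-type lung, had 32.8 TPM. The site was thus abundant in the stem cells, without a tag in the fibroblasts and rare or without tags in the tissues. A second plus-strand site on that chromosome, at 14900744 to 14900768, had 6546 tags in mESC and 0 in 3T3. Its ratio was 2517 with the 0 set to 3 (interval from 2046), but all 12 tissue libraries had tags and wild-type kidney reached 960 TPM.

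Several of these sites were close to absent from the tissues as well as from 3T3. A chromosome 4 site at 98405141 to 98405168 (plus strand) had 5833 tags in mESC and 0 in 3T3, and no tissue library was above 0.651 TPM. A chromosome 6 site at 122556243 to 122556291 (minus strand) had 4809 tags in mESC and 0 in 3T3, with at most 0.491 TPM in a tissue. A second chromosome 6 site, at 70912654 to 70912682 (plus strand), had 3785 tags in mESC, 0 in 3T3 and 0 in each of the 12 tissue libraries. These were the 3 of the 12 sites with less than 1 TPM in every tissue library. The chromosome 13 site at 98266932 to 98266962 (plus strand), with 5152 tags in mESC and 6 in 3T3, and the chromosome 19 site at 8912302 to 8912329 (minus strand), with 4748.5 tags in mESC and 0 in 3T3, had at most 2.45 and 2.80 TPM in a tissue.

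Other leading mESC sites were present in lung. The plus-strand site on chromosome 8 at 109194118 to 109194145 had 5775 tags in mESC and 1 in 3T3, and 737 TPM in wild-type lung. Its ratio was 6661 from that 1 tag, with an interval of 1195 to 263149, and 2220 with the tag number set to 3 as in the ranking. Wild-type lung also had 315 TPM at each of the sites on chromosome 7 at 148155699 to 148155725 (4720 tags in mESC and 3 in 3T3) and on chromosome 13 at 118062877 to 118062924 (4643 in mESC and 2 in 3T3), both on the plus strand. The remaining 2 sites, on chromosome 8 at 128554555 and chromosome 4 at 116826431, had 973 and 1120 TPM in mESC and 0 and 0.944 TPM in 3T3. At none of the 12 sites did a tissue library reach the mESC level.

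The 12 largest ratios toward 3T3 were smaller, 304 to 1052 in favour of 3T3 with tag numbers under 3 set to 3, and 1 of them had no tag in mESC. A plus-strand site on chromosome 10 at 22041543 to 22041570 had 3 tags in mESC and 3640 in 3T3, which is 1052-fold more TPM in 3T3 (interval 360 to 5103). The most abundant of the 12 was a plus-strand site on chromosome 1 at 40504937 to 40505005, with 20 tags in mESC and 12361 in 3T3, or 5.45 and 2918 TPM. That site was 536-fold higher in 3T3 (interval 347 to 878), and no tissue library was above 0.701 TPM, the only case of the 12 with every tissue under 1.

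On the minus strand of chromosome 1, the site at 151676758 to 151676787 had 10 tags in mESC and 6501.5 in 3T3, 564-fold higher in 3T3, with at most 18.4 TPM in a tissue. The chromosome 15 site at 101979900 to 101979941 (plus strand) had 12 tags in mESC and 7349.7 in 3T3, 531-fold higher in 3T3, and 688 TPM in wild-type lung. The chromosome 6 site at 4490618 to 4490672 (plus strand) had 0 tags in mESC and 1342 in 3T3, 388-fold lower in mESC with the 0 set to 3 (interval from 315). Tissue levels at these sites thus ranged widely. At 2 of the 12 a tissue library exceeded 3T3: wild-type lung had 1810 TPM at the chromosome 6 site at 55298522 to 55298548 (2 tags in mESC and 1797 in 3T3, or 0.545 and 424 TPM), and wild-type liver had 554 at the chromosome 9 site at 43029986 to 43030051 (0.817 in mESC and 255 in 3T3).

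One of the 12 depended on how intervals were merged. The chromosome 2 site at 13504359 to 13504405 had 5 tags in mESC and 2784 in 3T3, a log2 difference of -8.92. It lies just before a far larger site at 13504408 to 13504480, which had 988 tags in mESC and 50044.5 in 3T3. With both merged the log2 difference was -5.53.

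Among the most abundant sites, the same chromosome 15 position led in mESC and came second in 3T3. This plus-strand site at 76736672 to 76736741 had 12945 TPM in mESC and 12118 in 3T3, a log2 difference of 0.10 that became -0.11 with DESeq2 size factors. The leading 3T3 site, on the plus strand of the same chromosome at 78760596 to 78760642, had 3090 TPM in mESC and 87655 in 3T3, or 28.4-fold more in 3T3 (interval 27.8 to 28.9). It was the largest nuclear site of the 3T3 library and still abundant in mESC, and wild-type adipose tissue, the highest tissue, had 15208 TPM. The chromosome 2 site at 13504408 to 13504480 followed the same direction, with 269 TPM in mESC and 11814 in 3T3.

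Of the 5 most abundant mESC sites, 2 were apart. The plus-strand site on chromosome 7 at 13616352 to 13616442 had 6115 TPM in mESC and 307 in 3T3, 19.9-fold higher in mESC (interval 18.8 to 21.1), and at most 144 in a tissue. The chromosome 18 site at 78021516 to 78021604 had 9504 TPM in mESC and 2084 in 3T3, or 4.56-fold higher in mESC, and its log2 difference of 2.19 became 1.98 with DESeq2 size factors, just under the 4-fold limit. The minus-strand site on chromosome 17 at 35971751 to 35971823 was less than 4-fold apart between the cells, with 5881 TPM in mESC and 2715 in 3T3, but stood at 52.7 or less in the tissues, so it was abundant in both cultured cell types and scarce in all 12 tissue libraries.

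Sites apart in abundance were set beside the other sites near them. Same-strand sites up to 5000 nt from the next were linked into groups, which include the site itself and may hold no other, as a stand-in for genes. Of the 2653 sites apart, 2046 (77.1%) lay in a group whose summed tags were also 4-fold or more apart in the same direction, 220 (8.29%) in a group less than 2-fold apart, and 66 in a group that leaned the other way. Linking at 2000 or 10000 nt gave 79.5% and 74.1%. Of all 5551 groups at 20 TPM or more, 1150 were 4-fold or more higher in mESC and 844 in 3T3 (35.9% in all). These sums contain the site, which is the only one of its group for 273 of the 2653 sites (10.3%), so much of that share is fixed by the grouping. The other sites of the group, summed without the site, reached 20 TPM in either library for 868 of the sites apart. They were 4-fold or more apart in the same direction for 324 (37.3%), less than 2-fold apart for 294 (33.9%) and leaned the other way for 199 (22.9%). The corresponding shares around sites not apart were not counted. The sum without the site was added after seeing the data.

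Sites apart in abundance were unevenly spread over the chromosomes. Sites higher in mESC made up 36.3% of those compared on chromosome 14, 35.8% on chromosome 13, 35.5% on chromosome 9 and 35.1% on the X chromosome, against the 25.3% of all sites. Sites higher in 3T3 made up 27.5% on chromosome 19 and 27.0% on chromosome 15, against 18% of all. The summed level of chromosome 13 was 38075 TPM in mESC and 18711 in 3T3. Chromosome 15 had 53503 TPM in mESC and 146283 in 3T3, of which the 1 site at 78760596 accounts for 3090 TPM in mESC and 87655 in 3T3.

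The Y chromosome had tags in mESC and almost none in 3T3. It held 3081 tags, or 839 TPM, in mESC and 7 tags, or 1.65 TPM, in 3T3. A single plus-strand site at 365003 to 365034 carried 2999 of the mESC tags and 6 of the 3T3 tags. In the tissue libraries the Y chromosome held 68.1 to 258 TPM, so mESC stood above and 3T3 below all 12.

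Some stretches of a chromosome held runs of sites apart in the same direction. The windows below were picked after their values were seen. Close sites on the same strand may belong to 1 gene, so counts of sites in a window are not counts of genes. Of 489 windows of 1 Mb with 5 or more compared sites, 1 had all its sites higher in mESC and 1 all higher in 3T3. The first was on chromosome 14 from 57000000, where 6 of 6 sites were higher in mESC, together 299.5 TPM in mESC and 30.2 in 3T3. Its sites at 57579156, 57579327 and 57581165 lay close together on the plus strand. The preceding window on chromosome 14, from 56000000, had 9 of 13 sites higher in mESC and none higher in 3T3. The window on chromosome 6 from 122000000 held the leading site at 122556243 and had 7 of 8 sites higher in mESC, with 1826 TPM in mESC and 49.8 in 3T3. Within it, the minus-strand site at 122677822 to 122677865 had 445.1 tags in mESC and 0 in 3T3, and the minus-strand site at 122267736 to 122267798 had 589 in mESC and 14 in 3T3.

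In the other direction, the chromosome 5 window from 4000000 had 5 of 5 sites higher in 3T3, of which 4 lay within a stretch on the minus strand between 4081122 and 4082588. The window on chromosome 19 from 5000000 had 15 of 28 sites higher in 3T3 and 2 higher in mESC. Its largest difference in tags was at the plus-strand site 5455917 to 5455944, with 89 tags in mESC and 3040 in 3T3 and no tissue above 1.52 TPM. The window on chromosome 6 from 17000000 had 7 of 13 sites higher in 3T3, and all 13 together had 694 TPM in mESC and 3767 in 3T3. Most of the 3T3 level came from the plus-strand site at 17291239 to 17291338, with 298 tags in mESC and 10999 in 3T3. Next in 3T3 was the site at 17523951 to 17523978, with 18 in mESC and 1514 in 3T3.

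The tissue libraries gave a scale for these counts. By the same merging and limits, the miR-22 knockout and wild-type libraries of a tissue were apart at 1.5% of sites in liver to 7% in white adipose tissue, all far below the 43.3% between mESC and 3T3. Between the wild-type libraries of different tissues the share was 32.2% (heart against muscle) to 66.5% (muscle against lung), and 6 of the 15 tissue pairs were below the cell pair. By total tags, stem cells and fibroblasts were therefore within the range of tissue pairs, neither the most nor the least alike. Scaled by nuclear tags it was 43.1% for the cells and 31.0% to 61.9% for tissues, with 7 of 15 below the cells. Tissue pairs ranged from lopsided, at 592 sites higher in muscle and 3701 higher in lung, to balanced, at 1239 higher in liver and 1077 higher in white adipose tissue. TMM and DESeq2 factors were used for the cell pair only, so the place among tissues under them was not tested.

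Sites higher in mESC were rarer in the tissues than sites higher in 3T3. No tissue library reached 0.25 times the mESC level at 764 of the 1552 sites higher in mESC (49.2%). The same held, relative to the 3T3 level, at 255 of the 1101 sites higher in 3T3 (23.2%), and, relative to the higher of both levels, at 878 of the 3471 sites not apart (25.3%). Some tissue library was at or above the cells' own level at 20.1% of the sites higher in mESC, 44.6% of those higher in 3T3 and 36.6% of those not apart. No tissue tag at all was seen at 40, 14 and 6 sites. White adipose tissue was the highest tissue at 12.5% of the sites higher in mESC, 21.7% of those higher in 3T3 and 14.9% of the others. Lung, the most deeply sequenced tissue, was the highest at 47.6%, 43.3% and 47.4%.

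Use of neighbouring sites was compared at pairs on the same strand 100 to 5000 nt apart. Of 33934 such pairs, 6271 had 20 or more tags in each library, at a median distance of 387 nt. The distal share was 20 percentage points or more higher in mESC at 242 pairs (3.86%) and in 3T3 at 259 pairs (4.13%), 501 in all (7.99%), and 4542 pairs (72.4%) were within 5 points. The median distal share was 40.6% in mESC and 40.9% in 3T3, and the median difference was 0.03 points. The stem cells and fibroblasts thus had individual pairs apart in both directions in nearly equal number. The median hardly shifted toward proximal or distal sites. A site can be the distal member of a pair and the proximal member of the next. A difference at such a site can move these pairs in opposite directions, which favours equal numbers. How much of the balance comes from this was not tested.

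Many of those pairs have 1 site with next to no tags, so 1697 pairs in which each site held 5% or more of the tags of both libraries together were looked at separately. Of these, 238 were more distal in mESC and 256 in 3T3, 29.1% in all, and the median absolute difference was 11.4 points. The median distal share was 46.4% in mESC and 47.0% in 3T3, with a median difference of -0.24 points. The balance was similar at all distances: pairs more distal in mESC and in 3T3 numbered 113 and 122 under 300 nt, 71 and 78 from 300 to under 1000 nt, and 54 and 56 from 1000 nt up. Pairs with few tags were apart in a larger share: 14.5% of the 745 pairs with 20 to under 25 tags in the smaller library, just inside the limit, and 16.7% of the 1147 pairs just outside it, with 15 to under 20. Of 2518 pairs with 100 or more tags in each library, 37 were more distal in mESC and 52 in 3T3. The 5 nuclear pairs with the most tags had nearly all of them at 1 site in both cells and differed by -0.018 to 0.0084 points.

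**Figure D2:**
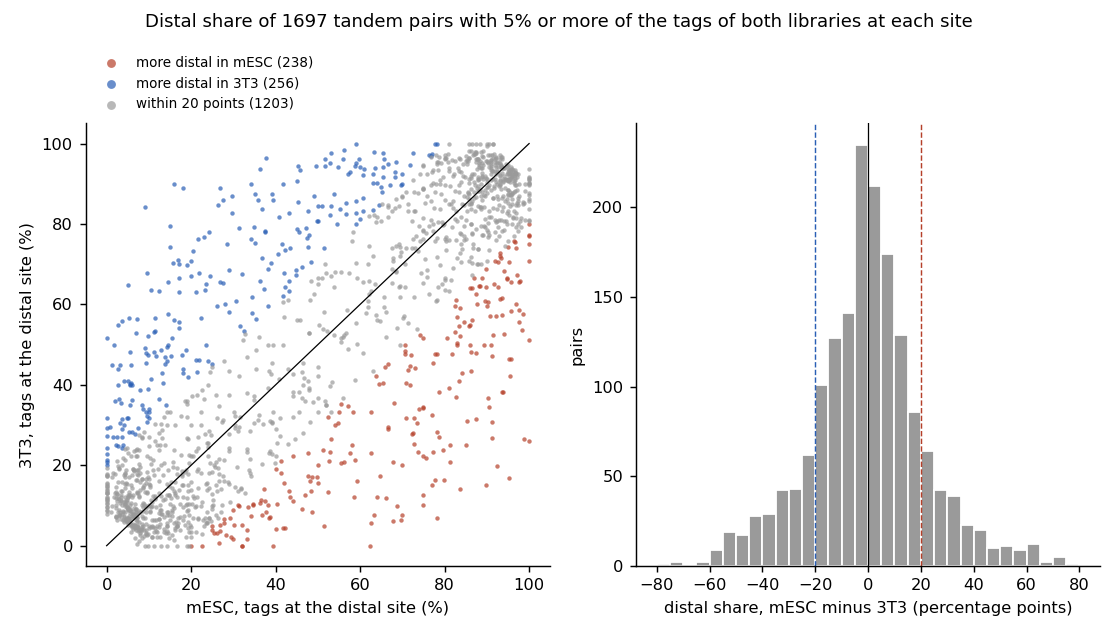
Left, the distal share of the 1697 pairs with 5% or more of the tags of both libraries at each site, mESC on the horizontal and 3T3 on the vertical axis, both in percent. Right, the number of these pairs by the difference in distal share, mESC minus 3T3 in percentage points, with dashed lines at 20 points; 238 pairs lie beyond the right line and 256 beyond the left one, and the middle is near 0.

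In most pairs that were apart, the proximal and the distal site differed in opposite directions. That was so at 181 of the 242 pairs more distal in mESC (74.8%) and 191 of the 259 more distal in 3T3 (73.7%). At the remaining 61 and 68 pairs both sites leaned the same way, by unequal amounts. The pairs were picked for a difference in share, which with similar totals largely fixes opposite directions. Opposite directions were seen at 236 of the 262 pairs apart with a total within 2-fold. With a total 4-fold or more higher in mESC it was 24 of 53, and 9 of 23 with one higher in 3T3. The site holding more than 50% of the tags was another one in mESC than in 3T3 at 106 of the pairs more distal in mESC and 112 of those more distal in 3T3. At 91 and 102 pairs the whole counting interval lay beyond 20 points.

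Among pairs with 100 or more tags in each library, the largest shift toward the distal site in mESC was on the minus strand of chromosome 10, from 83833917 to 83833651. The proximal and distal sites had 4 and 346 tags in mESC, against 121 and 43.8 in 3T3, so the distal share was 98.9% in mESC and 26.6% in 3T3, a difference of 72.3 points (interval 64.8 to 78.4). The tissue libraries with 20 or more tags there lay in between, at 63.0% to 82.8%. On the plus strand of chromosome 6, from 137699614 to 137699785, the distal share was 78.2% in mESC and 6.81% in 3T3, and 3.18% to 18.9% in the 12 tissue libraries. Here 3T3 lay within the tissue range and mESC far above it.

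The pairs on chromosomes 13, 2 and 19 had the same order, with 3T3 within the tissue range and mESC above it. On the plus strand of chromosome 13, from 81935914 to 81936031, the distal share was 69.7% in mESC and 6.38% in 3T3, with tissues at 5.11% to 35.5%. On chromosome 2, from 38871108 to 38871406, it was 68.7% in mESC and 9.91% in 3T3, with tissues at 7.92% to 20.9%. The chromosome 19 pair on the minus strand, from 34316013 to 34315578, had a distal share of 67.7% in mESC and 6.08% in 3T3, with tissues at 3.17% to 35.7%. It had 601 tags in mESC and 687 in 3T3 at the distal site, against 286.5 in mESC and 10611.5 in 3T3 at the proximal one. In that pair the distal levels were alike, 164 TPM in mESC and 162 in 3T3, and the proximal levels were 78.0 TPM in mESC and 2505 in 3T3.

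The remaining 3 of the 8 pairs differed from these. On the plus strand of chromosome 7, from 104540293 to 104540665, the distal share was 79.8% in mESC and 16.3% in 3T3, with tissues at 40% to 85%. On the plus strand of chromosome 9, from 99484757 to 99484879, it was 81.2% in mESC and 25.1% in 3T3, with tissues at 57.1% to 87.3%. In both of these pairs mESC lay within the tissue range and 3T3 below it. On chromosome 1, from 63226242 to 63226470, it was 66.1% in mESC and 11.8% in 3T3, with tissues at 0% to 1.62%, so both cell types used the distal site more than any tissue library did.

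The largest shift toward the distal site in 3T3 was on the plus strand of chromosome 10, from 127832616 to 127833024. The proximal and distal sites had 99 and 10 tags in mESC, against 29 and 156 in 3T3, so the distal share was 9.17% in mESC and 84.3% in 3T3, a difference of -75.2 points (interval -81.3 to -66.1). Tissues lay between, at 33.6% to 77.0%. On the minus strand of chromosome 7, from 123481095 to 123480785, the distal share was 15.1% in mESC and 79.4% in 3T3, with tissues at 74.3% to 92.5%. There the fibroblasts lay within the tissue range and the stem cells far below it.

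The same held on the plus strand of chromosome 4, from 126707523 to 126708037, with a distal share of 29.8% in mESC and 86.9% in 3T3, and 81.2% to 94.9% in the tissues. The proximal site had 1605 tags in mESC and 105 in 3T3, and the distal site 680 in mESC and 697 in 3T3, so the proximal site alone was far higher in mESC. On the minus strand of chromosome 5, from 3640922 to 3640022, the share was 26.8% in mESC and 88.8% in 3T3, and tissues, at 34.3% to 69.1%, lay between both. A longer pair on chromosome 5, 1205 nt apart from 135638536, had 3.64% in mESC and 55.9% in 3T3. The chromosome 11 pair from 4960501 to 4960384 (21.6% in mESC and 76.3% in 3T3) exists only while its closely spaced intervals are kept apart, since it was not formed when intervals up to 24 nt apart were merged.

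**Figure D3:**
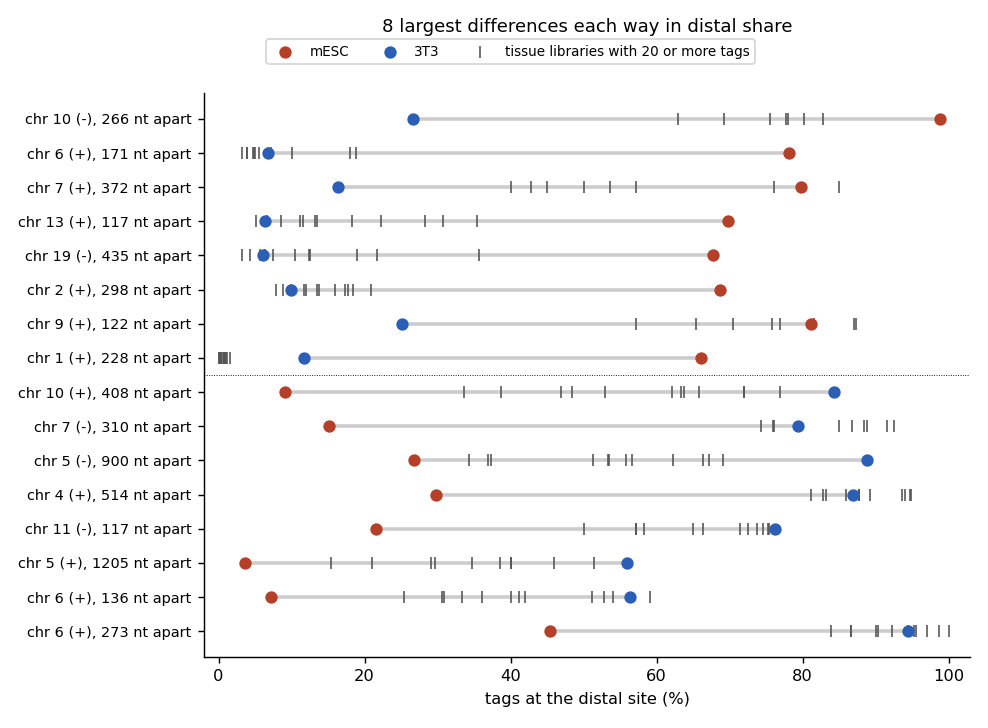
Distal share in percent of the 8 pairs with the largest shift toward the distal site in mESC (above the dotted line) and in 3T3 (below it), among pairs with 100 or more tags in each library; red circles are mESC, blue circles 3T3 and ticks the tissue libraries with 20 or more tags. In the second row from the top mESC is at 78.2% while 3T3 and all tissue ticks are at 18.9% or less, and in the fourth row below the line mESC is at 29.8% while 3T3 and all ticks are at 81.2% or more.

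Over all pairs apart with 6 or more usable tissue libraries, mESC lay outside the tissue range in a larger number of pairs than 3T3 did, with no test of that difference. Of 162 such pairs more distal in mESC, mESC lay outside the range of the tissue libraries at 109 and 3T3 at 85. Of 180 more distal in 3T3, mESC lay outside at 128 and 3T3 at 94. The tissue median was nearer to mESC at 98 and nearer to 3T3 at 122 of the 220 pairs more distal in mESC with any tissue value, and at 85 and 147 of the 232 more distal in 3T3. All pairs in these counts were picked for a large difference between mESC and 3T3, which favours values outside the tissue range. Whether mESC also lay outside that range more often than 3T3 at pairs not apart was not tested.

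A run of sites could hold shifts in both directions. In a group of 10 sites on the plus strand of chromosome 6, the site at 137699758 to 137699785 held 66.3% of the group's tags in mESC and 4.34% in 3T3. The site 171 nt before it, at 137699562 to 137699614, held 18.5% in mESC and 59.4% in 3T3, and the site at 137700380 to 137700450 held 5.70% in mESC and 27.8% in 3T3. Between these lay a smaller site at 137700150 to 137700197, with 6.87% in mESC and 1.65% in 3T3, and another at 137700068 to 137700130, with 2.08% in mESC and 5.24% in 3T3. Sites with a larger share in mESC thus alternated with sites with a larger share in 3T3. On chromosome 9, 3 sites on the plus strand from 99484597 gave the mirror image, with the middle one at 10.7% in mESC and 54.2% in 3T3, the first at 43.0% in mESC and 26.6% in 3T3, and the last at 46.3% in mESC and 18.2% in 3T3.

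Across whole groups of sites, the leading site was usually the same in both cells. Of 2649 groups with 100 or more tags in each library and 2 or more sites, 2359 (89.1%) had the same leading site. In the other 290 the leading site of mESC was the distal one in 137 and the proximal one in 153, at a median distance of 678 nt from that of 3T3. In 42 of them the leading sites were under 100 nt apart, and in 113 they were 1000 nt or more apart. In 150 groups the leading sites were 100 nt or more apart while the summed level was within 2-fold, so that the cells had similar totals and another leading end.

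The 6 such groups with the most tags in the smaller library were picked after their values were seen. The first of them, on chromosome 2, was a near tie in 3T3, with 2717 tags at its leading site and 2647 at the site that led in mESC. On the plus strand of chromosome 19, the site at 39042701 to 39042765 had 1276 tags in mESC and 1443 in 3T3, and the site 2192 nt downstream, at 39044929 to 39044957, had 1581 in mESC and 242.2 in 3T3. On chromosome 16 the site at 4938267 to 4938294 had 513 tags in mESC and 1046 in 3T3, and the site 2724 nt downstream 1309.5 in mESC and 549 in 3T3. Summed levels were 809 TPM in mESC and 412 in 3T3 for the chromosome 19 group, close to the 2-fold limit. For the chromosome 16 group they were 498 in mESC and 379 in 3T3. In both groups the downstream end led in mESC and the upstream end in 3T3. A chromosome 6 group went the other way, with summed levels of 364 TPM in mESC and 378 in 3T3. Its site at 38553829 to 38553891 held 37.3% of the tags in mESC and 10.5% in 3T3. The site 5545 nt downstream, at 38559393 to 38559436, held 13.0% in mESC and 73.7% in 3T3. Between them, the site at 38557119 to 38557152 held 35.9% in mESC and 3.43% in 3T3. The lead in mESC was therefore a near tie, with 499.1 tags at the first site and 481 at the middle one.

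**Figure D4:**
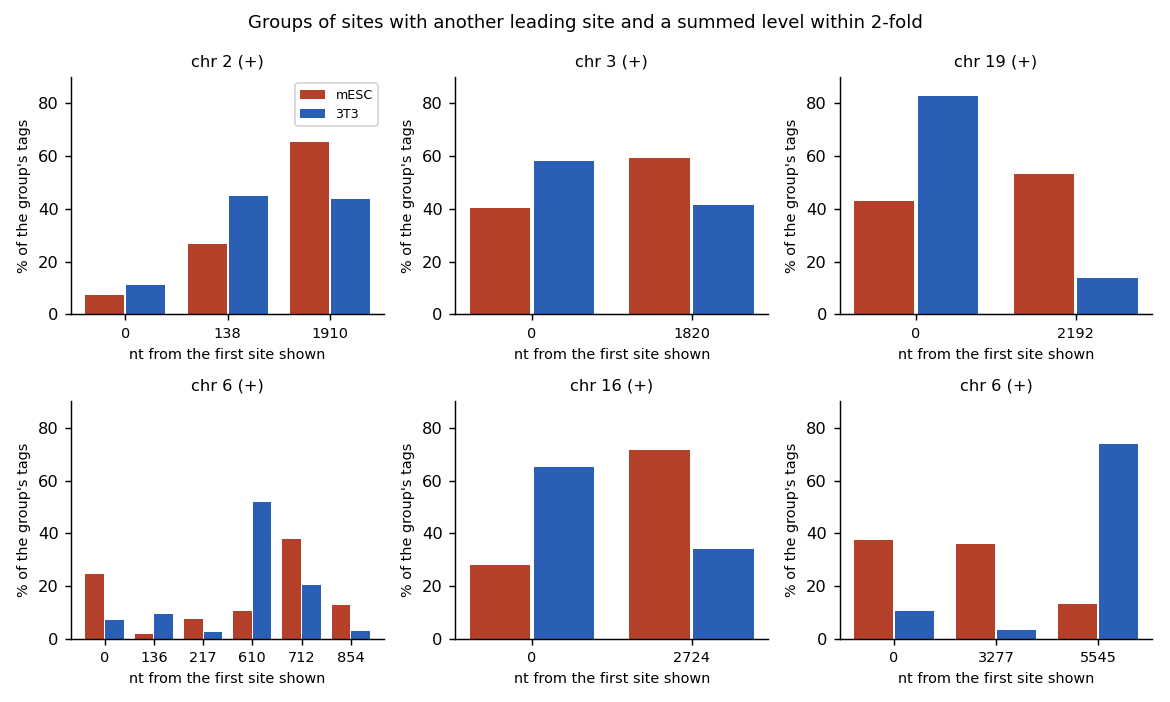
Share of a group's tags, in percent, at each site with 5% or more in either library, for the 6 groups picked above, mESC in red and 3T3 in blue. The horizontal axis names sites by their distance in nt from the first site shown, with 5′ to 3′ running left to right, and is not to scale. In the chromosome 19 panel the downstream site holds 53.2% in mESC and 13.9% in 3T3. In the last chromosome 6 panel the last site holds 13.0% in mESC and 73.7% in 3T3.

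In site use, the share of pairs 20 points or more apart was larger between stem cells and fibroblasts than between any pair of wild-type tissue libraries, while the median difference over all pairs was not. Of pairs with 20 or more tags in each library, 7.99% were 20 points or more apart between mESC and 3T3, against 2.59% (liver against kidney) to 5.21% (muscle against kidney) between wild-type tissues, and 1.85% (liver) to 4% (white adipose tissue) between the knockout and wild-type libraries of a tissue. With each site at 5% or more, the shares were 29.1% for the cells, 9.53% to 20.2% between tissues, and 5.61% to 11.6% within a tissue. The cell pair was above all 15 tissue pairs by either share, and also with a limit of 50 tags, at 4.94% against 1.29% to 3.24%. The median absolute difference in distal share over all pairs with 20 or more tags was 1.85 points between mESC and 3T3, within the 1.43 to 2.13 points between wild-type tissues, of which 9 of 15 pairs were below the cells, and within the 1.64 to 2.24 points between knockout and wild type. With each site at 5% or more it was 11.4 points between the cells and 6.57 to 8.75 between tissues. Intervals before merging reached 32 nt in the cells but 36 nt in the tissues, and the part of this in the result was not tested.

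**Figure D5:**
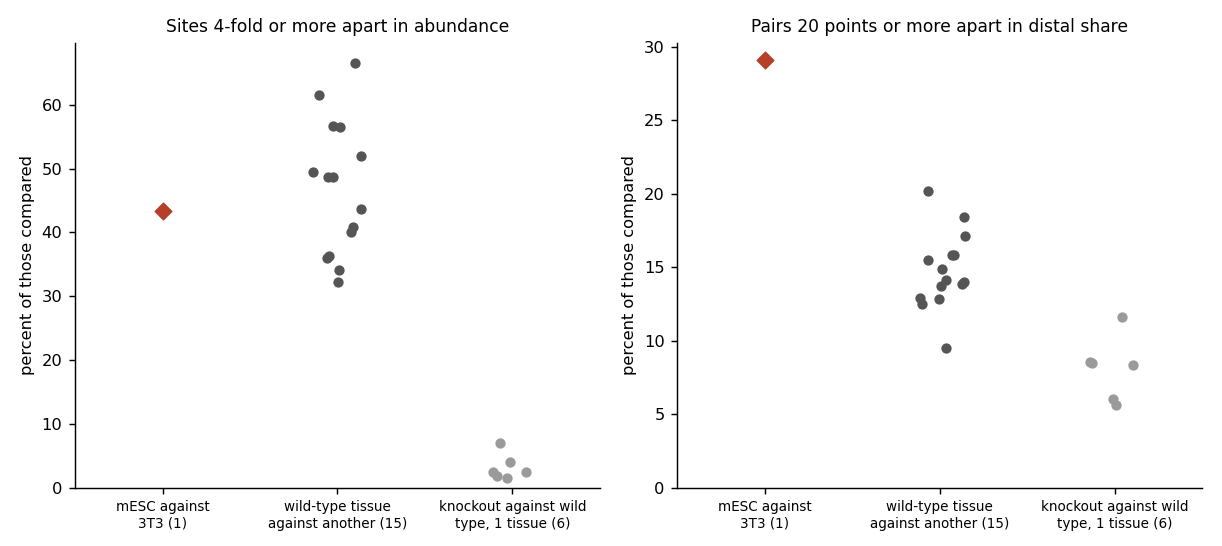
Percent of sites 4-fold or more apart (left) and of pairs, with each site at 5% or more of the tags, 20 points or more apart in distal share (right), for mESC against 3T3, for the 15 pairs of wild-type tissues and for knockout against wild type in each of 6 tissues; each point is 1 comparison of 2 libraries, spread sideways for legibility. On the left the cell pair, at 43.3%, lies among the tissue pairs, and on the right, at 29.1%, above all of them.

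Set beside the tissues over the same pairs, both cell types were the least distal. Over 517 pairs with 20 or more tags in all 14 libraries and 5% or more of the tags at each site, the median distal share was 39.1% in mESC and 40.3% in 3T3, and 44.9% to 51.7% in the 12 tissue libraries. The mean was 45.6% in mESC and 46.5% in 3T3, and 48.3% to 51.4% in the tissues. When sites were merged over all 14 libraries, which left 408 such pairs, the medians were 36.0% in mESC and 38.3% in 3T3, against 40.3% to 47.7%. Without the 5% limit the order of the medians depended on the merging: 34.1% in mESC and 31.9% in 3T3 against 40% to 43.8% over 2354 pairs, but 68.2% in mESC and 67.5% in 3T3 against 66.7% to 72.2% over 3190 pairs of sites merged over the 14 libraries.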

How the data were processed

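Poly(A) sites were measured by 3P-seq in 14 libraries of total RNA. The authors deposited, per library, a list of intervals with a strand and an estimated count of tags, not scaled; 1.62% of the mESC and 1.21% of the 3T3 values are not whole numbers. Per the submitters' processing notes, CASAVA 1.7 and Bowtie were used with build mm9; neither a version for Bowtie nor the way reads became sites is given in the sources used here. An offset of 1 named in the track lines was not applied, and the mESC list has no track line.

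Overlapping or touching same-strand intervals of both lists were merged, values summed and scaled to tags per 1000000 of the library total (TPM) (Python 3.11.15, pandas 2.3.3), with the 3′ end of the largest interval as the position. Ratios carry exact Clopper-Pearson 95% intervals and differences in share Newcombe intervals, from values rounded to whole numbers. Neighbours in a pair are adjacent among all merged sites. The steps were tested on simulated data. edgeR 4.0.16 and DESeq2 1.42.0 supplied scaling factors only.

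Named are, on nuclear chromosomes, the 12 largest ratios per direction at 50 TPM or more, the 5 most abundant sites per library, the 8 largest differences in distal share per direction at 100 tags or more in each library, and the 5 pairs with the most tags; some are given by range only. Members, rules and lists were chosen with earlier results of these data known. Lists of genes and markers could not be matched without an annotation of mm9 and were not used. No column of per-sample values was left unused (0).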

Additional observations from a re-analysis of the deposited data

Results flagged for a closer look

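Among the comparisons of knockout with wild-type libraries used as a scale, white adipose tissue stood apart from the other 5 tissues in the share of pairs apart. There 4.001% of pairs were 20 points or more apart in distal share, and the gap to the next tissue was 0.626 of the range over the 6. That gap only just passed the limit of Dixon's rule for 6 values. The rule flagged no tissue by the share of sites apart, or by pairs with each site at 5% or more. Chance alone flags about 1 in 20 such groups, and a flag in any of several related measures is likelier than that. The cell pair, at 7.99%, was above this value.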

How the results depend on the processing

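The counts of sites followed their limits. Sites higher in mESC and in 3T3 numbered 955 and 639 at 50 TPM, 2858 and 1971 at 5 TPM, and 2419 and 1878 at a 2-fold limit. Under the 5 other scalings, both other mergings and the near end of the interval at 4-fold they stayed within 1.5 times the main counts. Pairs more distal in mESC and in 3T3 numbered 92 and 97 at 50 tags, 499 and 520 among neighbours with 5 or more tags, 505 and 534 at 10 points, and 91 and 102 where the interval's near end had to pass 20 points. The median difference was -0.24 points with each site at 5% or more. The highest share of pairs apart within a tissue was 2.48% at 50 tags, 11.6% with each site at 5% and 8.24% among neighbours with 5 or more tags. Alternatives for the tissue scale, for linking distances, for the merging of the 14-library medians and for scaling over abundant sites were chosen after seeing the data. One named pair moved beyond its interval: the chromosome 6 pair from 17616111 went to -34.7 points from -49.2 when merged over the 14 libraries. Among named sites, 9 moved beyond their interval with DESeq2 size factors and 24 did not. By nuclear tags 7 moved and 26 did not. The leading 3T3 site, on chromosome 15 at 78760596, went to a log2 difference of -5.03 from -4.83 with DESeq2 size factors. Summing sites per gene was not run, since no annotation of mm9 was used. No paired analysis was possible because each group has 1 library and no replicate number, so no library could be left out either. Few tags at a site widen the interval of its share.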
